A study of Mus musculus with 3 samples.

Results

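The replication-dependent histone genes of the mouse were chosen by symbol, as all protein-coding genes of the GENCODE M21 annotation whose names begin with Hist1h, Hist2h, Hist3h or Hist4h. There are 67 of them among 21646 protein-coding genes, 1 per symbol, on the autosomes and X. By class, 6 encode the linker histone H1, 18 encode H2A, 18 encode H2B, 12 encode H3 and 13 encode H4. By cluster, 54 belong to Hist1 on chromosome 13, 10 to Hist2 on chromosome 3, 2 to Hist3 on chromosome 11 and 1 to Hist4 on chromosome 6. The accessibility of their promoters was measured by DNase-seq, in which the enzyme DNase I cuts DNA where chromatin is accessible and the cuts are sequenced.

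Replication-dependent histones package newly made DNA, and their genes are known to be transcribed mainly in S phase of the cell cycle. Most have no intron, and their messages end in a short hairpin, bound by SLBP, instead of a poly(A) tail. H2A and H2B genes often lie head to head, so that a single stretch of DNA holds both promoters, and factors such as NPAT, HINFP, NF-Y and the octamer factor POU2F1 are known to act there. Replication-independent variants such as H3.3 and H2A.Z have genes of their own elsewhere in the genome, with introns and ordinary message ends.

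The data come from Müller cells, the radial glia of the retina, as primary cells of B6NCrl mice at postnatal age 12 days, with males and females pooled. There is 1 group of 3 biological replicates. Each has its own biosample label but all carry the same donor label, and the spread between them may be partly technical. The labels name no sort, culture time, genotype change or treatment, although the nuclei protocol they point to was written for cultured cells. For each replicate the authors deposited peaks of 150 bp, each with a score from 1 to 150, and wider hotspots; coordinates are on mm10. What the score counts is not stated, and since its maximum equals the peak width it can saturate. Read depth is unknown. Replicates 1, 2 and 3 held 300269, 281185 and 184544 peaks.

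All 7 Müller glia markers tested, such as Glul and Rlbp1, had a promoter site found in every replicate, and none of the 5 rod markers had a promoter peak in any replicate. All 7 microglia and macrophage markers had a promoter peak in replicates 1 and 2 but only 2 did in replicate 3, and Spi1, Cx3cr1, C1qa, C1qb and Csf1r had none there. All 6 proliferation markers, among them Mki67 and Pcna, were open in every replicate.

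A site was called reproducible where peaks of all 3 replicates overlapped, and a promoter open where such a site lay within 1 kb of an annotated start. By this measure 56 of the 67 histone genes were open (83.6%), beside 67.1% of all protein-coding genes. Replicates 1, 2 and 3 had a promoter peak at 56, 56 and 57 histone genes, beside 72.7%, 71.8% and 69.7% of all genes. The mean share over replicates was 84.1% ± 0.862 (SD, n = 3) for the histone genes. The strongest promoter peak of a histone gene had a median score of 136.5, 127 and 107 in replicates 1, 2 and 3, and that of all genes with a peak had a median of 123, 115 and 113. The histone medians were thus above those of all genes in replicates 1 and 2 and below in replicate 3. No test was made of these differences, because the genes of a cluster share promoters and are not independent.

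**Figure D1:**
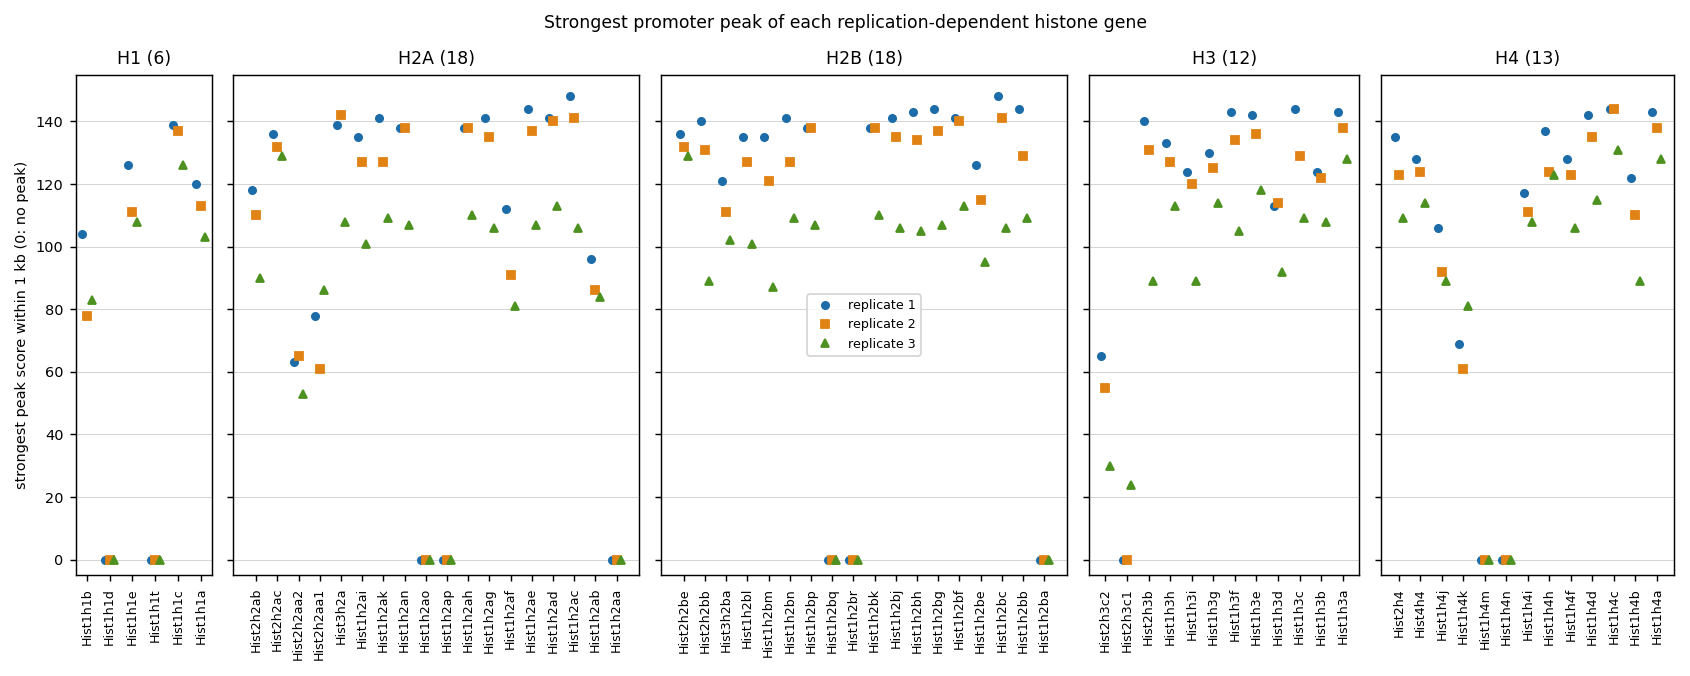
Score of the strongest peak within 1 kb of an annotated start (vertical axis, score without unit, 0 where there was no peak) for each of the 67 histone genes, by class and in genome order, with 1 point per replicate. Most genes lie between 100 and 150 in replicates 1 and 2 and lower in replicate 3, and the genes at 0 are the ones described in the text as lacking a site.

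Because histone genes resemble each other, part of their DNA cannot be told from other copies by a short read. As a measure of this, the share of 32-base words that occur more than once in the assembled mm10 chromosomes was computed for the 1 kb on either side of each main start. Its median was 24.5% for the histone genes and 9.64% for 19 replication-independent variant genes. It was 0.761% for 33 factor genes, a list for histone gene expression, the handling of histone proteins and the cell cycle. Among the 57 histone genes below 50% on this measure, 53 were open (93.0%). Among the 10 above 50%, 3 were open. The sources used here state neither read length nor how reads with several matches were treated, and the part that multiple matches play in missing peaks was not tested.

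Many histone genes were arranged head to head. Neighbouring genes on opposite strands whose starts lay at most 1 kb apart formed 13 pairs, of which 12 join an H2A gene with an H2B gene and 1 joins the H2B gene Hist1h2bh with the H3 gene Hist1h3f. No histone gene paired with a gene of another kind. The starts of a pair were 176 to 660 bp apart, with a median of 268 bp, and the 711 other divergent pairs of protein-coding genes had a median of 195 bp. A reproducible site was shared in 10 of the 13 histone pairs, beside 96.1% of the other pairs. In all 10, the centre of the strongest shared peak fell between both starts in every replicate. For the other pairs with a peak, that held in 532 of 684 pairs in replicate 1, 528 of 685 in replicate 2 and 514 of 682 in replicate 3. The starts of the other pairs were 1 to 1000 bp apart, and pairs of equal spacing were not compared.

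The stretches between the starts of 4 pairs follow, to set pairs with a shared site beside a pair without one. They are mm10 plus-strand sequences, read from the left gene (minus strand) to the right gene (plus strand). Capitals mark the TATA box (TATAAA), the CCAAT box (CCAAT, the core bound by NF-Y) and the octamer (ATTTGCAT), each on either strand. The first 3 had a shared site and the last had none. The pairs are Hist1h2ac and Hist1h2bc at chr13:23683949-23684198, Hist1h2ag and Hist1h2bj at chr13:22042945-22043213, Hist2h2ac and Hist2h2be at chr3:96220881-96221118, and the testis pair Hist1h2ba and Hist1h2aa at chr13:23934197-23934421. For the last, 40 bases were trimmed at each end, because its gene models begin at the start codon.
Hist1h2ac/Hist1h2bc: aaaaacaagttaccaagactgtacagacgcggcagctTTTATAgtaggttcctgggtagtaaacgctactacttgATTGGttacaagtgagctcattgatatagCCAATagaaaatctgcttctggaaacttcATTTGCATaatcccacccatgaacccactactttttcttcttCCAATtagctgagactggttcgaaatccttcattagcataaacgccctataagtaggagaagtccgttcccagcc
Hist1h2ag/Hist1h2bj: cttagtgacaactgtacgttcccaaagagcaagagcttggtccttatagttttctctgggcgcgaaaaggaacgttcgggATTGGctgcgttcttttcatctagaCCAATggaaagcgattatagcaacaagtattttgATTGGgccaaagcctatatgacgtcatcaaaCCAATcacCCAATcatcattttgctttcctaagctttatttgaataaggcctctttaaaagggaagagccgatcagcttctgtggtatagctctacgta
Hist2h2ac/Hist2h2be: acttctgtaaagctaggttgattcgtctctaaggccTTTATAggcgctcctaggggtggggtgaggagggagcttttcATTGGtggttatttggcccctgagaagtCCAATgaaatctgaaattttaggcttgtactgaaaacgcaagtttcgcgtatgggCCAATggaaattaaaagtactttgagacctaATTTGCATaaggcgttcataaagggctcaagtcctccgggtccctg
Hist1h2ba/Hist1h2aa: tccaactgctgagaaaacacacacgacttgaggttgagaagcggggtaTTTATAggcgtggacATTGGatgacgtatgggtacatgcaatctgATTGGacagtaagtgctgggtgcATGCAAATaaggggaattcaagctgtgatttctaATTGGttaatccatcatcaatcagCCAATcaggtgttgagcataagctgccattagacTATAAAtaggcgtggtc

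Hist1h2ac/Hist1h2bc had the highest shared score in replicate 1, with 148, 141 and 106 in replicates 1, 2 and 3. Its strongest peak was centred 17 bp to the right of the midpoint between the starts in each replicate. The whole stretch between the starts holds 1 TATA box, 3 CCAAT boxes and 1 octamer, and the TATA box lies outside the peak. Hist1h2ag/Hist1h2bj scored 141, 135 and 106 and was centred 11.5, 11.5 and -8.5 bp from the midpoint. It has 5 CCAAT boxes, the most of any pair, with no TATA box and no octamer by these letters. Hist2h2ac/Hist2h2be scored 136, 132 and 129, the closest values across replicates among these open pairs.

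The testis pair carries 2 TATA boxes, 4 CCAAT boxes and 1 octamer, so these letters were present where no peak was found in any replicate. Hist1h2ba and Hist1h2aa encode H2B and H2A types known from the male germ line. The nearest reproducible sites were 12951 and 13257 bp from their starts. Of the 32-mers around the starts 10.7% occur elsewhere, beside 20.1% or more at each open pair. Over all 13 pairs, every one held CCAAT boxes between the starts (2 to 5 of them), 8 held a TATA box and 5 an octamer.

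The remaining open pairs had scores close to one another. Hist1h2ae/Hist1h2bg, with the closest starts, scored 144, 137 and 107. Hist1h2bf/Hist1h2ad scored 141, 140 and 113, and Hist1h2an/Hist1h2bp scored 138, 138 and 107. Hist1h2ah/Hist1h2bk scored 138, 138 and 110. Hist1h2ak/Hist1h2bn scored 141, 127 and 109, and Hist1h2bl/Hist1h2ai, the lowest pair in replicates 1 and 3, scored 135, 127 and 101. Hist1h2bh/Hist1h3f, with the widest interval, had 2 shared sites. Its strongest peak scored 143, 134 and 105 and was centred at -211.5, -211.5 and -271.5 bp from the midpoint, which is the side of Hist1h2bh. Replicates 1, 2 and 3 gave the 10 pairs median scores of 141, 136 and 107, with a mean of 128 ± 18.4 (SD, n = 3), and gave the other pairs 137, 133 and 125, with a mean of 131.7 ± 6.11. In each of the 10 pairs the score was lowest in replicate 3. Both remaining pairs without a site, Hist1h2bq/Hist1h2ao and Hist1h2ap/Hist1h2br, lie in a duplicated stretch described with the Hist1 cluster.

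Between 1 and 2 kb, 3 further head-to-head neighbours lay 1132 bp (Hist1h3c and Hist1h2bb), 1280 bp (Hist1h3a and Hist1h1a) and 1614 bp (Hist1h4f and Hist1h1d) apart. Counting any arrangement, 89 reproducible sites lay within 1 kb of a histone gene start, and 30 of them lay within 1 kb of 2 or more. The 56 open genes therefore do not stand for 56 separate sites. A strongest peak within 1 kb can belong to a neighbour, as for Hist1h3a, whose strongest peak of 143, 138 and 128 is that of Hist1h4a. Within 300 bp of its own start codon Hist1h3a scored 120, 117 and 90.

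H2A forms dimers with H2B in the nucleosome, and the promoters of its genes ranged widely. Of 18 H2A genes, 15 were open, and their median score was 138, 132 and 106 in replicates 1, 2 and 3. Outside the pairs, Hist3h2a scored 139, 142 and 108, and Hist2h2ab scored 118, 110 and 90. Low scores belonged to Hist2h2aa2, with 63, 65 and 53, and Hist2h2aa1, with 78, 61 and 86. These latter genes lie head to head in an inverted repeat of the Hist2 cluster, and 59.4% and 56.6% of the 32-mers around their starts occur elsewhere. Hist1h2af (112, 91 and 81) and Hist1h2ab (96, 86 and 84) were also low. Around their starts 17.3% and 14.1% of 32-mers occur elsewhere, and within 300 bp of their start codons 47.2% and 32.8%. The part of repeated sequence in these scores was not tested.

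Among open genes, H2B promoters had the narrowest range of the core classes. Of 18 H2B genes, 15 were open, with scores of 121 to 148 in replicate 1, 111 to 141 in replicate 2 and 87 to 129 in replicate 3. Hist1h2bb, which stands outside the pairs, scored 144, 129 and 109. Hist2h2bb scored 140, 131 and 89, and Hist1h2bm scored 135, 121 and 87. Hist3h2ba in the small Hist3 cluster scored 121, 111 and 102. These 4 single genes were all highest in replicate 1 and lowest in replicate 3.

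H3 and H4 form the tetramer at the centre of the nucleosome, and their genes mostly have promoters of their own. Of 12 H3 genes, 11 were open, with medians of 133, 127 and 106.5. Within 300 bp of the start codon 10 had a peak, with medians of 124, 121 and 93.5. At Hist2h3c2, Hist2h3b, Hist1h3f, Hist1h3c and Hist1h3a the strongest peak within 1 kb lay outside that narrower window. Hist1h3e scored 142, 136 and 118, and Hist1h3d scored 113, 114 and 92. Hist2h3c2 and Hist2h3c1, in the Hist2 repeat, were the weakest: the first reached 65, 55 and 30 at a site 782 bp from its start, and the second had a peak of 24 in replicate 3 only. For these genes 79.6% and 80.6% of the 32-mers occur elsewhere, and neither had a peak within 300 bp of its start codon.

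Of 13 H4 genes, 11 were open, with medians of 128, 123 and 109. Hist1h4c, at 144, 144 and 131, had the highest score of any histone gene in replicates 2 and 3. Hist1h4d scored 142, 135 and 115, and Hist2h4 scored 135, 123 and 109. Hist1h4k was the lowest of the open H4 genes, at 69, 61 and 81, and was higher in replicate 3 than in the others. Hist4h4, the only member of its cluster, scored 128, 124 and 114 at a site past its coding sequence and 118, 104 and 101 within 300 bp of its start codon.

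Of 6 H1 genes, which encode the linker histones that bind the DNA between nucleosomes, 4 were open by their annotated start. The fifth, Hist1h1d, has an annotated start 1828 bp before its start codon. Within 300 bp of the start codon it scored 93, 88 and 88. By the same measure Hist1h1a scored 120, 113 and 103, Hist1h1b scored 104, 78 and 83, Hist1h1c scored 118, 107 and 126, and Hist1h1e scored 116, 100 and 108. The sixth, the testis H1 gene Hist1h1t, had no peak in any replicate. No 32-mer around its start occurs elsewhere, and its nearest reproducible site, 1682 bp away, is on the side of Hist1h4c.

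Taking the start codon in place of the annotated start, 55 of 67 histone genes had a reproducible site within 300 bp, beside 39.8% of all genes, for which the start codon can lie in a later exon. A similar case to Hist1h1d is Hist1h2be, whose main annotated start is 35138 bp from its start codon. At the start codon it scored 129, 120 and 88.

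The 200 bases before the annotated start of 4 single promoters follow, in the direction of the gene, to set open H4 and H1 promoters beside the closed testis H1 promoter. Capitals mark the TATA box, the CCAAT box, the H4 box (GGTCC, the core of the element that HINFP binds) and the H1 box (AAACACA), on either strand. Hist1h4d lies at chr13:23581398-23581597 (plus strand), Hist1h4c at chr13:23698455-23698654 (minus strand), Hist1h1c at chr13:23738608-23738807 (plus strand) and Hist1h1t at chr13:23695614-23695813 (plus strand).
Hist1h4d: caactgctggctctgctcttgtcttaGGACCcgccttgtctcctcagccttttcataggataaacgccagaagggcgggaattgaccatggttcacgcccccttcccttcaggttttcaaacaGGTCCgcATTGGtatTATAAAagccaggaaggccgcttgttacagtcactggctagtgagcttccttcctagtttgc
Hist1h4c: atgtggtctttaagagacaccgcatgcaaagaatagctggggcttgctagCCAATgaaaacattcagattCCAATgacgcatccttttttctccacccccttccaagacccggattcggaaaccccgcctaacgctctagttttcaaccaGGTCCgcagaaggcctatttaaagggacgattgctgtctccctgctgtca
Hist1h1c: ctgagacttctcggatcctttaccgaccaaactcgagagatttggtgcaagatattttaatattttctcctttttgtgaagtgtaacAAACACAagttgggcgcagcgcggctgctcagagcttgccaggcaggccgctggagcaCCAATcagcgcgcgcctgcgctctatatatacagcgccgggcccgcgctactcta
Hist1h1t: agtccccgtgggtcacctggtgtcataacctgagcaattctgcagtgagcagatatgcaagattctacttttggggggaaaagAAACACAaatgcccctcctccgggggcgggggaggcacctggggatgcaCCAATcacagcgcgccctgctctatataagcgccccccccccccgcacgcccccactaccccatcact

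Hist1h4d has an H4 box 77 bp before its start and a TATA box at 62 bp, and Hist1h4c has an H4 box at 50 bp. Hist1h1c and Hist1h1t share an arrangement, with an H1 box at 113 and 117 bp and a CCAAT box at 55 and 68 bp. The first was open in every replicate and the second in none.

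Short elements differed by class over the 300 bp before the start, searched on both strands with matches of different elements allowed to overlap. CCAAT was present in 54 of the 67 histone genes (80.6%) and in 38.6% of all genes, and it was found in all 18 H2A and all 18 H2B genes but in 4 of 13 H4 genes. ATTTGCAT was present in 7 H2A and 8 H2B genes and in no H1, H3 or H4 gene, beside 1.81% of all genes. The windows of a head-to-head pair can overlap, so that both genes count the same match, as for the octamer in 5 pairs. TATAAA was present in 35 histone genes (52.2%) and in 14.5% of all genes. On the gene's own strand it was present in 4 H1, 9 H2A, 4 H2B, 4 H3 and 7 H4 genes, beside 10 H2B genes on either strand. The share on the own strand was not computed for all genes. GGTCC occurred in 12 of 13 H4 genes, but it is short and 46.3% of all genes hold it. AAACACA occurred in 4 of 6 H1 genes and in 7.04% of all genes. An E2F element (TTTCGCGC, TTTGGCGC or TTTCCCGC) was present in 9 histone genes (13.4%) and in 2.19% of all genes. The cyclic AMP response element TGACGTCA was present in 4 histone genes and in 2.07% of all genes. The GC box GGGCGG, bound by SP factors, was less common in histone genes (32.8%) than in all genes (42.5%), and 10 of 13 H4 genes held it. The median ratio of observed to expected CpG was 0.878 for histone genes and 0.552 for all genes. A match to such letters is a description of the sequence and not evidence of binding.

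At the other end of the gene, a perfect hairpin (a 6-base stem beginning with GG and a 4-base loop beginning with TT) was searched in the 150 bp after the coding sequence. It was found in 60 of 67 histone genes, a median of 34 bp after the coding sequence, in 2 of 19 replication-independent variants and in 12 of 21579 other genes. The commonest form, in 38 genes, is shown with its stem in capitals.
Hairpin: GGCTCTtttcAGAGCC
The search found none in Hist2h2be, Hist1h2an, Hist1h2bp, Hist1h2bq, Hist1h2br, Hist1h3g and Hist1h4a.

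Peaks sat just upstream of histone genes. The centre of the strongest peak lay at a median of -101.5, -107 and -80.5 bp from the main annotated start (negative upstream) in replicates 1, 2 and 3. In 75%, 76.8% and 70.2% of the genes with a peak it fell in the 200 bp upstream, beside 51.2%, 51.6% and 48.9% of all genes. For 11 of the 67 histone genes the annotated start is the first base of the coding sequence. Both genes of an open head-to-head pair count the same peak. At 100 bp upstream, a peak covered 85.7%, 78.6% and 64.3% of the open histone genes and 45.4%, 44.8% and 41.6% of other open genes. At 100 bp downstream the shares were 5.36%, 5.36% and 12.5%, beside 14.3%, 13.9% and 16.8%. Further in, at 440 bp, the shares of histone genes were higher again, at 41.1%, 37.5% and 42.9%, beside 17.3%, 16.7% and 12.0% of other genes.

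**Figure D2:**
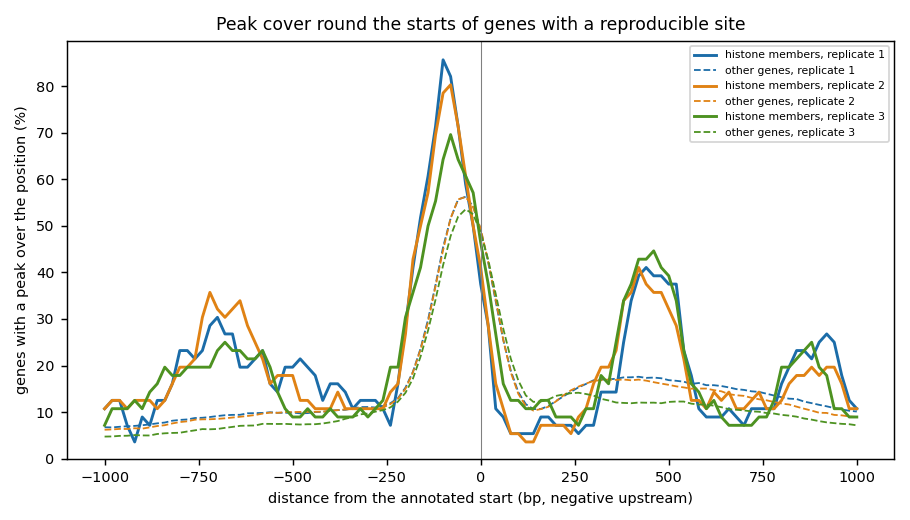
Share of genes with a peak over each position (vertical axis, percent) against the distance from the annotated start (horizontal axis, bp, negative upstream), for the 56 open histone genes (solid lines) and other open genes (dashed lines), 1 colour per replicate. The histone genes have a high maximum about 100 bp upstream and a further one 400 to 500 bp downstream, where the other genes stay below 20%.

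The downstream maximum was at 440, 420 and 460 bp in replicates 1, 2 and 3. This is about where the coding sequences end, since they begin a median of 33 bp after the annotated start and have a median length of 390 bp. Cover was taken over the 55 open histone genes whose main annotated start lies within 1 kb of the start codon. Peaks covered 46.0% ± 1.603 (SD, n = 3) of the 300 bp before the start codon, 10.5% ± 2.45 of the coding sequence and 23.8% ± 0.232 of the 300 bp after it. The same regions had mean shares of repeated 32-mers of 6.09%, 66.2% and 9.07%, so the coding sequence with little peak cover is also the part with most repeated words. In the 8 of these genes with under 25% of such words in the coding sequence, the covers were 47.4% ± 3.94, 12.7% ± 5.93 and 13.8% ± 3.78. The part that repeated words play in the low cover of coding sequences was not tested.

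A reproducible site centred in the 500 bp after the coding sequence, and over 500 bp from the start of any other gene, was present at 25 of 67 histone genes, beside 3.29% of all genes. In 62 of the 67 histone genes the main transcript has a single exon, and short genes of this kind end near their start. Among open genes with a single exon, 22 of 53 histone genes (41.5%) and 45 of 493 other genes (9.13%) had such a site. By class it was present at 4 of 6 H1, 3 of 18 H2A, 8 of 18 H2B, 2 of 12 H3 and 8 of 13 H4 genes. This search was added after the profile had been seen.

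The end sites of H1 genes had the highest median score of the classes in every replicate. Hist1h1c scored 139, 137 and 119 at a site 286.5 bp past its coding sequence, above the 118 and 107 at its start codon in replicates 1 and 2 and below the 126 there in replicate 3. Hist1h1b scored 137, 121 and 73 at 415.5 bp, with 104, 78 and 83 at its start codon. Hist1h1e scored 126, 111 and 95 at 100.5 bp, and Hist1h1d scored 124, 113 and 79 at 488.5 bp. All 4 were highest in replicate 1 and lowest in replicate 3. Core histone genes overlapped with them: Hist1h4h reached 131, 121 and 98 and Hist4h4 reached 128, 124 and 114, both above Hist1h1e and Hist1h1d in every replicate. Hist1h2be reached 97, 81 and 104, and Hist1h2bm reached 120, 114 and 83. The end sites of other H4 genes were weaker, such as Hist1h4a at 40, 32 and 34. Median scores of the end sites were 131.5, 117 and 87 for H1, 77, 69 and 48 for H2A, and 51.5, 44 and 43.5 for H2B. For H3 they were 81.5, 73 and 47.5, and for H4 60.5, 54.5 and 58.5.

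With starts at most 100 kb apart placed together, the histone genes fell into 7 blocks. Over their length 6 of these held 2.14 to 6.99 reproducible sites per 10 kb and the seventh none, beside 0.552 over the genome. The longest block, on chr13:23531050-23764406, has 29 histone genes, of which 27 were open, and 52 sites, of which 39 lay within 1 kb of a histone gene start. Only 1 other protein-coding gene lies in it, the iron regulator Hfe, with promoter scores of 116, 109 and 105. The Hist2 block on chr3:96219865-96270132 had 9 of 10 genes open and 16 sites, 12 of them near a start. Beyond 1 kb of an annotated histone gene start, these blocks held 0.689 and 1.08 sites per 10 kb, above the genome value. The 18-gene Hist1 block held 0.103 and the 3 blocks of Hist3, Hist4 and 5 Hist1 genes held none. In the longest block such sites included those at the start codons of Hist1h1d and Hist1h2be and at the Hfe promoter. A site past the coding sequence of Hist1h1d and of Hist1h2be also counted here. The value without these sites was not computed. A strong site away from any start in the Hist2 block lay 6257 bp from Hist2h2be and scored 132, 132 and 87.

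A second block of 18 Hist1 genes on chr13:21715763-21837530 had 12 open genes and 26 sites, 25 of them within 1 kb of a histone gene start. All 6 closed genes of this block lie together at its end. They are Hist1h2bq, Hist1h2ao and Hist1h4m, and, in inverted order, Hist1h4n, Hist1h2ap and Hist1h2br. No peak and no hotspot lay among them in any replicate, over gaps between peaks of 57.05, 63.91 and 56.99 kb. Of the 32-mers around their starts, 95.7% to 100% occur elsewhere in the genome. The windows of Hist1h2bq and Hist1h2br shared 99.9% of their words, and those of Hist1h2ao and Hist1h2ap 98.5%. Across the whole gap of replicate 3, 76.8% of 32-mers were repeated, beside 39.0% over the block. Closed chromatin and reads lost to multiple matches cannot be told apart at these 6 genes.

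**Figure D3:**
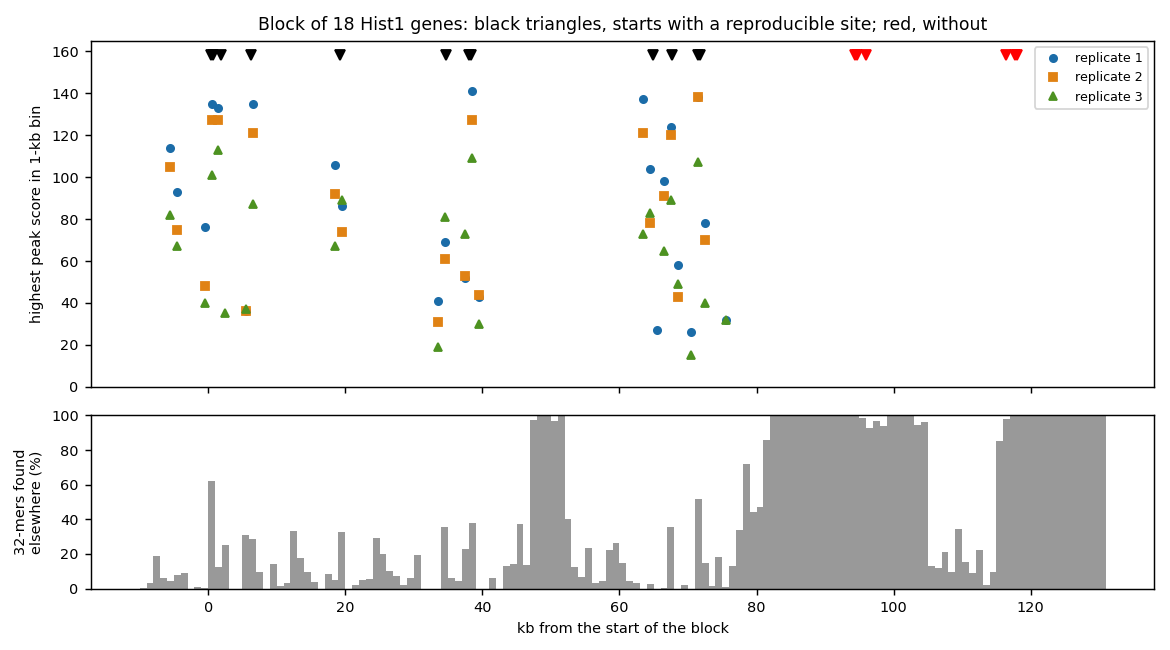
Highest peak score in each 1-kb bin (upper panel, vertical axis, score) and share of 32-mers found elsewhere in the genome (lower panel, percent) against the distance from the start of the block of 18 Hist1 genes (kb), with 1 marker shape per replicate and triangles for the gene starts. The 6 starts without a site, in red, lie in the stretch where no replicate has a peak and most bins are made of repeated words.

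The remaining blocks were small. The block on chr13:22035164-22043676 had all 5 genes open. The Hist3 and Hist4 genes were all open. The block of Hist1h2ba and Hist1h2aa, on chr13:23933773-23934851, had no peak in any replicate. The 11 histone genes that were not open were thus the 6 of the duplicated stretch, Hist2h3c1, Hist1h1d, and the testis genes Hist1h1t, Hist1h2ba and Hist1h2aa.

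Hotspots, the wider regions of enriched cutting, lay over the annotated start of 37 of 67 histone genes in each replicate. For all genes the shares were 58.8%, 56.9% and 58.1%. Those over histone gene starts were shorter, with medians of 482, 423 and 451 bp beside 1064, 837 and 1162 bp for all genes. Several had the same length in all 3 replicates, such as 482 bp at Hist2h2ac and 297 bp at Hist1h2ac. Around these 2 starts 22.6% and 34.1% of 32-mers occur elsewhere. The part that repeated sequence plays in hotspot length was not tested. The hotspot at Hist2h4 spanned 2003, 2039 and 2078 bp and was the longest over a histone gene start in replicates 2 and 3. The longest in replicate 1 was that at Hist1h1b, with 2085 bp there and 733 and 1181 bp in replicates 2 and 3. Of the 32-mers around these starts 1.88% and 1.27% occur elsewhere.

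Scores were also turned into ranks within a replicate, as the percent of its peaks that score lower, because replicates differ in number and height of peaks. Histone genes with a peak in every replicate (56) had median ranks of 97.5%, 96.4% and 91.9% in replicates 1, 2 and 3. All genes with a peak in every replicate (14664) had 94.2%, 93.8% and 93.9%. Relative to all genes, the histone promoters thus ranked higher in replicates 1 and 2 and lower in replicate 3. Replicate 3 gave the lowest rank for 45 of the 56 genes (80.4%), beside 40.7% of all genes. It also did so for 5 of 7 Müller glia markers and 4 of 6 proliferation markers, and for 16 of 33 factor genes and 5 of 12 variant genes with a peak in every replicate. The differences between these lists were not tested. Counted as distinct promoters, replicate 3 was lowest for 33 of 43 histone promoters.

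In each class the median rank was lowest in replicate 3. Replicates 1, 2 and 3 gave H2A genes 97.9%, 97.5% and 91.6%, and H2B genes 98.4%, 97.5% and 91.6%. H3 genes had 96.6%, 96.4% and 92.2%, H4 genes had 95.2%, 95.4% and 92.5%, and H1 genes had 93.6%, 92.4% and 91.5%. In replicates 1 and 2 the peaks ranked for Hist1h1c and Hist1h1e were those past their coding sequences. For some H3 genes, such as Hist1h3a and Hist1h3c, the peak ranked lay over 300 bp from the start codon in every replicate. Within 300 bp of the start codon, 5 H1 genes had median scores of 116, 100 and 103, lowest in replicate 2. Ranks at the start codon were not computed. By rank within 1 kb, replicate 3 was lowest for 2 of 4 H1, 11 of 15 H2A, 14 of 15 H2B, 11 of 11 H3 and 7 of 11 H4 genes. The count was also taken by the share of repeated words, with 3 genes in the highest group, all in the Hist2 repeat. Of 36 genes with 15% to 50% of repeated words 32 were lowest in replicate 3, with medians of 98.2%, 97.4% and 91.9%. Of 17 genes under 15%, 12 were, with medians of 95.2%, 95.4% and 92.2%. Of the 3 open genes above 50%, Hist2h3c2 was lowest in replicate 3 (61.6%, 61.7% and 31.0%), but Hist2h2aa2 (59.7%, 70.2% and 62.4%) and Hist2h2aa1 (72.0%, 67.1% and 84.3%) were not. Replicate 3 also had the fewest peaks and lacked peaks at 5 of 7 microglia and macrophage markers, and the part of these differences in the ranks was not tested.

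**Figure D4:**
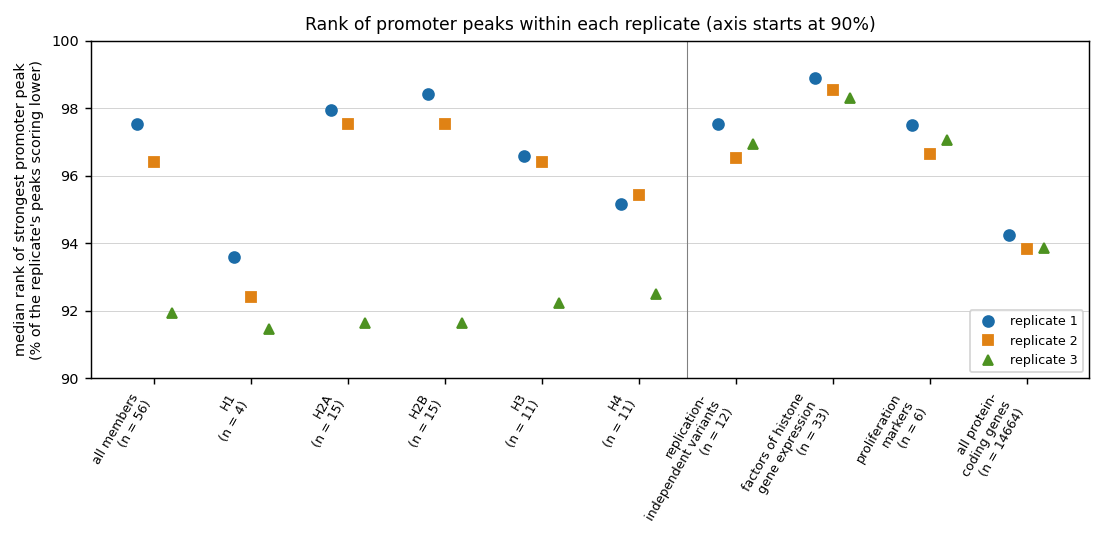
Median rank of the strongest promoter peak within its replicate (vertical axis, percent of the replicate's peaks that score lower, starting at 90%) for the histone genes, their 5 classes, 3 comparison lists and all genes, with 1 marker per replicate and n giving the genes with a peak in all 3. Each histone class is lowest in replicate 3, at 91.5% to 92.5%, while the 3 lists lie between 96.5% and 98.9% in every replicate. The peak ranked is the strongest within 1 kb of a start, which can lie past the coding sequence or belong to a neighbour.

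The order of the histone genes was also less alike between replicates than that of all genes. Over the 56 histone genes, Spearman's rho of promoter scores reached 0.865 for replicates 1 and 2, against 0.564 for replicates 1 and 3 and 0.639 for replicates 2 and 3. Over all genes with a peak in both replicates, the same values were 0.974, 0.897 and 0.897. These values are across genes, which share promoters, and the histone scores cover a narrower range.

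Genes of related function were set beside the histone genes. Of 19 replication-independent variant genes, 12 were open (63.2%), beside 67.1% of all genes. Those with a peak in every replicate had median ranks of 97.5%, 96.5% and 96.9%. H3f3b, which encodes H3.3, scored 146, 147 and 134, H2afz (H2A.Z) scored 144, 145 and 140, and Cenpa, the centromeric H3, scored 142, 141 and 117. The lowest open gene was H1foo, the oocyte linker histone, at 68, 61 and 42. Those that were not open were H1fnt, Hils1, H2afb1, H2afb2, H2afb3, H2al2a and H2bfm. H1fnt and Hils1 are known as linker histones of the male germ line, as is Hist1h1t.

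All 33 factor genes were open, with median ranks of 98.9%, 98.5% and 98.3%. Npat, which encodes the coactivator of histone transcription, scored 150, 148 and 141, and Hinfp, which encodes the H4 promoter factor, scored 145, 144 and 140. Slbp, for the hairpin-binding protein, scored 143, 137 and 138. Nfya, a subunit of the CCAAT-binding factor, scored 149, 148 and 143. By the median over replicates the lowest were Cpsf2, at 106, 104 and 118, and Lsm11, of the U7 particle that trims histone messages, at 107, 88 and 109. The 6 proliferation markers had median ranks of 97.5%, 96.6% and 97.1%. Unlike the histone genes, none of these lists had a median rank below that of all genes in replicate 3.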

How the data were processed

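DNase-seq peaks and hotspots of 3 replicates were used as the authors deposited them, on mm10. Per the file headers, each list was derived from that library's filtered alignments plus 1 further file; the aligner and the peak caller were not given in the sources used here. The deposited peak value is a score of unstated meaning, and the deposited hotspot value is a −log10 q capped at 100. Duplicate peak lines (21, 20 and 23) were removed. Peaks were merged at an overlap of 1 bp, and a region with peaks of all 3 replicates was a reproducible site. Genes, starts and coding sequences came from GENCODE M21, and sequence from the mm10 reference. The main start is that of the transcript with the longest coding sequence. A shared site of a pair overlaps the stretch between the starts or lies within 250 bp of both. Repeated words are 32-mers counted on both strands of 21 chromosomes. Scripts ran in Python 3.11.15 with numpy 2.4.6 and numba 0.67.0 and were tested on simulated data. Named genes are the class members with the highest and lowest scores, every closed member, the Hist3, Hist4 and testis genes, members with peaks in only some replicates, the pairs, and the ends of each comparison list; other members named were chosen after their values were seen. Members, lists and measures were chosen with earlier results of these data known. Scores lack counts, so no depth, interval or model could be given.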

Additional observations from a re-analysis of the deposited data

How the results depend on the processing

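The number of open histone genes (56), the mean number with a peak per replicate (56.3), the mean of the median scores (123.5) and the number of pairs with a shared site (10) were recomputed under 40 alternatives in all. In all 40 the counts stayed within 1.5 times and the score within 1 SD of the value in the report. These limits are wide, since 56 of 67 and 10 of 13 cannot rise 1.5 times, so staying within them says little. Open genes ranged from 54 of 67, with 75 bp shared between peaks, to 59 of 67 with a window of 2500 bp. With that window 71.0% of all genes were open. When genes rich in repeated words were left out, 53 of 57 were open. The mean score ranged from 117 without replicate 1 to 131.75 without replicate 3, so replicate 3 lowered it most. Pairs with a shared site ranged from 9 of 12, with starts at most 500 bp apart, to 10. The start codon window, the scores without repeated genes and the per-replicate counts without each replicate were added after the data had been seen. Leaving out each replicate gave 56 open genes and 10 pairs every time. No paired analysis was possible because there is 1 group and no contrast between groups. Unknown depth, a score that can saturate, and repeated sequence limit every statement on missing peaks.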
